A study of Homo sapiens with 15 samples.

Results

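The IFIT genes, which encode the interferon-induced proteins with tetratricopeptide repeats, were followed through 15 arrays of human MT-2 cells. The Affymetrix Human Gene 1.0 ST array measures a gene by a transcript cluster, a set of probes whose signals are summarised in 1 value. The members are the clusters that the array annotation names IFIT1 (7929065), IFIT2 (7929047), IFIT3 (7929052) or IFIT5 (7929072). Each of these genes had a single cluster, so that the members are 4 of the 18377 genes named by clusters with 1 symbol and 4 of 28926 clusters in all. MT-2 cells are CD4+ T cells immortalised by the human T-lymphotropic virus HTLV-1, and the study set 2 treatments of the disease caused by this virus beside each other in it. The cells were cultured for 48 hours with IFN-α2A at 1000 IU/ml (IFN-α), with ascorbic acid (AA) at 10 µg/ml (low dose), 50 µg/ml (intermediate dose) or 100 µg/ml (high dose), or untreated. Each of the 5 conditions was run once in each of 3 experiments, numbered here by a tag in the sample titles. The tags of experiments 2 and 3 share a date, so how independent they are of each other is not known. All samples come from 1 cell line, and p values therefore measure the spread between cultures or RNA samples of that line.

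Type I interferons bind a receptor whose kinases JAK1 and TYK2 activate ISGF3, a complex that includes IRF9 and switches on interferon-stimulated genes. IFIT proteins are products of such genes and bind foreign RNA. IFIT1 holds messenger RNA whose cap lacks the methyl mark of host transcripts and keeps it from the ribosome. IFIT2 binds AU-rich RNA and has been linked to apoptosis. IFIT3 binds IFIT1 and stabilises it. IFIT5 binds single-stranded RNA that carries a triphosphate end. The 4 genes lie together on chromosome 10, beside IFIT1B, a relative that is not known as an interferon-stimulated gene in human cells.

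Promoter sequence is shown because IFIT3 and IFIT5 were called higher under IFN-α and IFIT1 and IFIT2 were not, although the 4 genes neighbour each other. The windows hold 250 bases before and 10 bases after the start of a transcript (RefSeq, GRCh38.p14, plus strand), and 3 of the 4 members, all but IFIT2, matched by symbol. The window of IFIT5 is chr10:89414318-89414577, that of IFIT1 is chr10:89392373-89392632, and IFIT3 has windows at both of its listed starts, chr10:89332279-89332538 and chr10:89327747-89328006. That of IFIT1B, chr10:89377806-89378065, is set beside them. Capitals mark every place where GAAA stands 2 bases (any bases) before a further GAAA or, read on the other strand, TTTC before TTTC. These letters are the core of the interferon-stimulated response element, the DNA element that ISGF3 binds.
IFIT5: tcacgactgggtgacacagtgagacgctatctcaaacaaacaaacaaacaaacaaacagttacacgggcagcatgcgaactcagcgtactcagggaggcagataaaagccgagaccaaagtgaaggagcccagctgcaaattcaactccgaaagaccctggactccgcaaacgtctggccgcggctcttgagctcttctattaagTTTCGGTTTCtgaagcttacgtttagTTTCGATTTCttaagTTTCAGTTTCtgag
IFIT1: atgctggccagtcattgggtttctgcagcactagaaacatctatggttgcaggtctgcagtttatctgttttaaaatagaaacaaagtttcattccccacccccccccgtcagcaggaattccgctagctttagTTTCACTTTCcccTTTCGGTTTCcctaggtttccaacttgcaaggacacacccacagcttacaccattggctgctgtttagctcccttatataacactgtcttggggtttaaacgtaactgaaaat
IFIT3 (window from 89332279): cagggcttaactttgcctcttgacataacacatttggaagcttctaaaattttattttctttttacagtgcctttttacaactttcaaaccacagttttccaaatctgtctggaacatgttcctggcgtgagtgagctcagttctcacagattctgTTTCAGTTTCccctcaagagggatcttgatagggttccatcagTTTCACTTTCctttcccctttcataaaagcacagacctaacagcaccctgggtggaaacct
IFIT3 (window from 89327747): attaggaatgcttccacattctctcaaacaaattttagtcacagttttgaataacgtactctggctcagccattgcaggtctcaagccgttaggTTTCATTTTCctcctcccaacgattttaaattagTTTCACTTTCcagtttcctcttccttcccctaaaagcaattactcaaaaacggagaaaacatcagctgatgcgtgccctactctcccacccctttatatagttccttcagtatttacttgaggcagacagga
IFIT1B: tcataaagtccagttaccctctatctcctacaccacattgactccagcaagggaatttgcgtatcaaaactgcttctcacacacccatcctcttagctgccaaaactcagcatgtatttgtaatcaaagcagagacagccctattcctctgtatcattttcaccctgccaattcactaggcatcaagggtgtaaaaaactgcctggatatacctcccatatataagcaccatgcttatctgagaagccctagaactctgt
All matches stand on the strand opposite to the gene, and none overlaps another. Counted back from the start of the transcript, IFIT5 has 3 matches, from -45 to -36, from -19 to -10 and from -4 across the start to base 6. IFIT1 has 2, from -116 to -107 and from -103 to -94. Each window of IFIT3 also has 2, from -94 to -85 and from -51 to -42 in the first printed and from -156 to -147 and from -122 to -113 in the second. The window of IFIT1B has 0. Among 35116 windows of this length, 3.2% hold at least 1 match, 0.231% at least 2 and 0.0285% at least 3. For other genes that were higher under IFN-α by the call explained below, 40.6% of 69 windows hold at least 1 match, 13.0% at least 2 and 4.35% at least 3. IFIT1, which was not called, has as many matches as each window of IFIT3, which was called. However, the array signal of IFIT1 was dim and was not tested against background. For IFIT2, also not called, there is no window to count. Whether matches relate to the calls was not tested. A match describes the letters only, and whether any of them is bound in MT-2 cells was not measured.

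The values are the authors' log2 values after RMA, which aims at a common distribution of the arrays, and their medians lay between 6.69 and 6.85. High-dose AA of experiment 3 stood apart, with a mean correlation of 0.976 with the other arrays against 0.991 to 0.995 for the rest. Its values were also more compressed, with a lower quartile of 5.53 against 5.20 to 5.32 and an SD of 2.02 against 2.12 to 2.18. Its dim clusters thus carried higher values. Of the CD4+ T-cell markers, CD4 lay at the 96.4th percentile of the clusters in untreated cells and CD2 at the 61.0th, whereas CD3D, CD3E, CD5 and CD28 lay below the median. The activation markers IL2RA, CCR4, TNFRSF4 and FOXP3 lay above the median, and 0 of 3 measured B-cell markers did. Of the 4 monocyte markers 1 lay above the median, and of the 3 NK-cell markers 2 did. The conditions were compared with limma, by contrasts of a single fit to all 15 arrays. A call means an unadjusted p below 0.001, as in the methods of the study, and every adjusted p was computed over the 28926 clusters by the Benjamini-Hochberg method. A change of 1 on the log2 scale is a doubling of the signal.

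IFN-α raised IFIT5 and IFIT3 more than 4-fold, while IFIT2 and IFIT1 were higher by smaller amounts that did not pass the threshold. IFIT5 rose 5.49-fold (95% interval 4.46 to 6.76) and IFIT3 4.63-fold (3.09 to 6.92). IFIT2 was 1.8-fold (1.27 to 2.55) and IFIT1 1.25-fold (1.07 to 1.47) above untreated cells. Thus 2 of the 4 members were called higher, where 0.273% of all clusters were called higher. The same 2 members passed an adjusted p under 0.05, as did 0.221% of all clusters. The IFIT1 cluster was dim on every array, with log2 values from 4.04 to 4.74, and its signal was not tested against background. Its small change therefore does not show how far the transcript itself was raised. In bulk RNA, more transcript per cell and more cells with the transcript cannot be told apart.

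**Figure D1:**
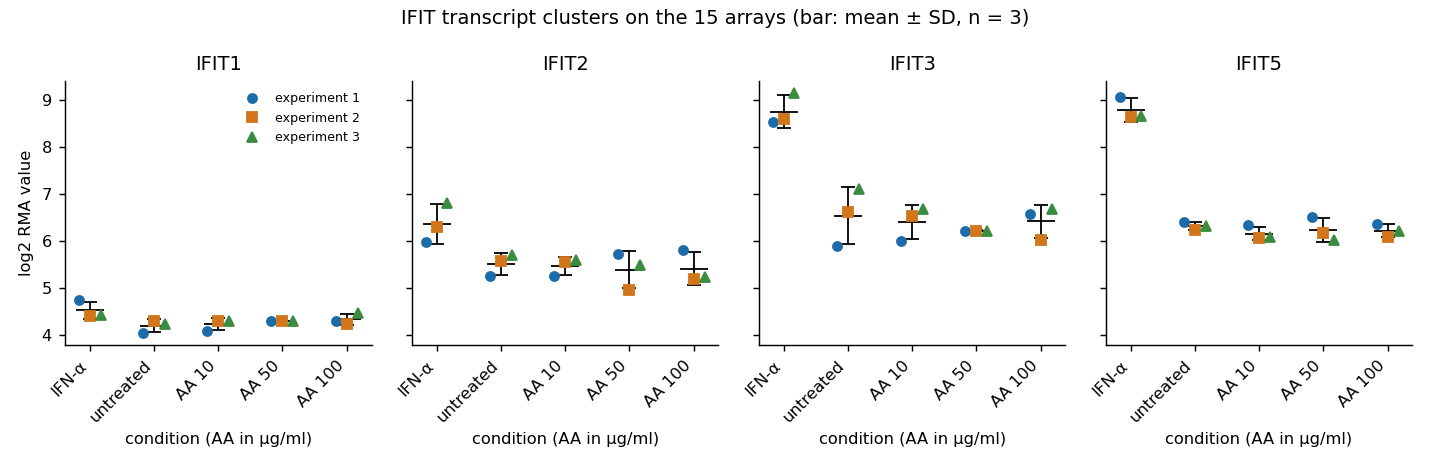
Log2 RMA values of the 4 IFIT clusters (y-axis) under IFN-α, in untreated cells and at 3 doses of AA in µg/ml (x-axis); each symbol is 1 array, and bars give the mean and SD of 3 arrays. IFIT3 and IFIT5 stand above 8.5 on the IFN-α arrays and at or below 7.09 on all others, while IFIT1 lies between 4.04 and 4.74 on all 15.

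IFIT5, the sensor of triphosphate RNA, had log2 values of 9.06, 8.62 and 8.64 in experiments 1, 2 and 3 under IFN-α, against 6.40, 6.24 and 6.32 in untreated cells. The groups were more than 2 log2 units apart and did not overlap. The means were 8.78 ± 0.25 under IFN-α and 6.32 ± 0.08 in untreated cells (SD, n = 3 each). The difference was 2.46 (standard error 0.140, adjusted p = 1.79e-07 in limma), and it was 2.67, 2.39 and 2.32 within experiments 1, 2 and 3. IFIT5 stood 11th by p value and 9th by size of the increase among all clusters. On the arrays it moved to the 78.3rd to 83.2nd percentile of clusters under IFN-α, against the 40.7th to 43.1st in untreated cells.

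IFIT3, the partner of IFIT1, had log2 values of 8.52, 8.58 and 9.14 under IFN-α and of 5.90, 6.62 and 7.09 in untreated cells. Both sets of arrays were lowest in experiment 1 and highest in experiment 3, and they did not overlap. The means were 8.75 ± 0.34 under IFN-α and 6.54 ± 0.60 in untreated cells (SD, n = 3 each). The SD of 0.60 was the largest of any member in any condition. The difference was 2.21 (standard error 0.271, adjusted p = 9.26e-04 in limma). Within experiments it was 2.62, 1.96 and 2.05. IFIT3 stood 36th by p value and 13th by size of the increase.

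IFIT2, which binds AU-rich RNA, had log2 values of 5.98, 6.30 and 6.81 under IFN-α and of 5.26, 5.58 and 5.70 in untreated cells. The order of the experiments was that of IFIT3, and each IFN-α array lay above each untreated array. The means were 6.36 ± 0.42 under IFN-α and 5.51 ± 0.23 in untreated cells (SD, n = 3 each). The difference of 0.85 (standard error 0.234, adjusted p = 0.790 in limma) was not called. Within experiments 1, 2 and 3 it was 0.72, 0.72 and 1.11. IFIT2 would have been called without the IFN-α array of experiment 1 (a difference of 1.04) or with array weights (0.90). Over the 26 alternative settings, listed below, its difference ran from 0.63 to 1.04 (unadjusted p at most 0.028 in limma). On the arrays it lay at the 37.0th to 51.1st percentile under IFN-α and the 24.6th to 32.8th in untreated cells. Whether its signal in untreated cells lay above background was not tested.

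IFIT1, the sensor of unmethylated caps, had log2 values of 4.74, 4.40 and 4.43 under IFN-α and of 4.04, 4.31 and 4.24 in untreated cells. The lowest IFN-α array lay 0.09 above the highest untreated array, both of experiment 2. The means were 4.52 ± 0.19 under IFN-α and 4.20 ± 0.14 in untreated cells (SD, n = 3 each). The difference of 0.32 (standard error 0.107, adjusted p = 1 in limma) was not called. It was 0.69 in experiment 1, against 0.09 and 0.19 in experiments 2 and 3, and without experiment 1 it was 0.14. IFIT1 lay between the 9.72nd and the 17.9th percentile of the clusters on every array, IFN-α included. The cluster had only 9 distinct values on 15 arrays, with 4.31 on 7 of them, and 0.349% of all clusters had as few, or 0.747% of the dimmest 7231. The other 3 members had 15 distinct values each. Whether the signal of IFIT1 lay above background was not tested.

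All 4 members had their 3 IFN-α arrays above their 3 untreated arrays, as had 2.62% of all clusters. For IFIT2, IFIT3 and IFIT5 the IFN-α arrays also lay above all 12 other arrays, as for 0.75% of all clusters. IFIT1 missed this because high-dose AA of experiment 3 reached 4.46, above its IFN-α arrays of experiments 2 and 3. On that array, the one that stood apart, this value lay only at the 11.7th percentile. The IFN-α arrays had IFIT1 at the 14.2nd to 17.9th percentile. The median change of the members was 1.53, and that of all clusters was -0.0080.

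**Figure D2:**
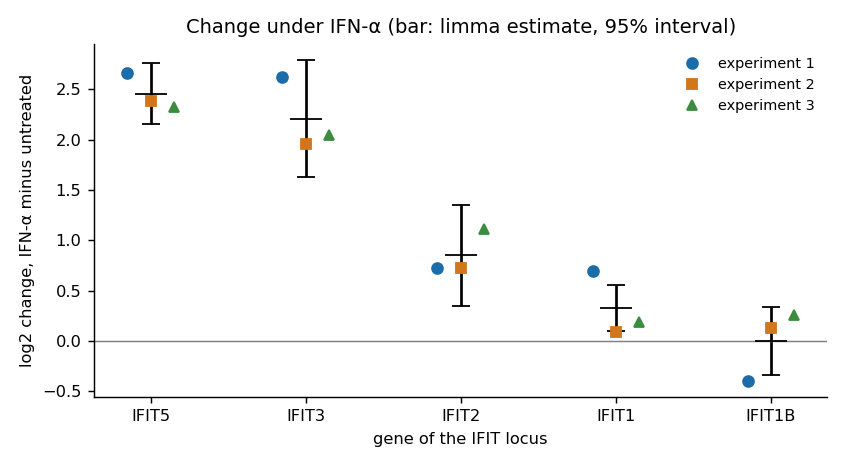
Log2 change under IFN-α against untreated cells (y-axis) for the 4 IFIT members and IFIT1B (x-axis); symbols are the changes within each experiment, and bars are the limma estimate with its 95% interval. IFIT5 (2.46) and IFIT3 (2.21) stand apart from IFIT2 (0.85) and IFIT1 (0.32), and the interval of IFIT1B (-0.34 to 0.33) holds 0.

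Paralogs were compared on each array by the difference of 2 members, which asks whether their changes differed rather than whether each changed. The signal of IFIT1 was not tested against background. Gaps to IFIT1 therefore compare changes of measured values and do not show that the transcripts changed unequally. The signal of IFIT2, dimmer than that of IFIT3 and IFIT5, was not tested against background either. Against untreated cells, the change of IFIT5 exceeded that of IFIT2 by 1.61 (1.94, 1.67 and 1.21 in experiments 1, 2 and 3). It exceeded that of IFIT1 by 2.13 (1.97, 2.30 and 2.13). The change of IFIT3 exceeded that of IFIT2 by 1.36 (1.90, 1.24 and 0.94). It exceeded that of IFIT1 by 1.89 (1.93, 1.87 and 1.86). These 4 pairs joined a member that was called with a member that was not, and each kept its sign in 3 of 3 experiments. Each had an exact permutation p = 0.1, the smallest that 3 arrays against 3 allow (two-sided, 20 arrangements, adjusted p = 0.15 over the 6 pairs). Within the 2 groups of members the gaps were smaller. IFIT5 exceeded IFIT3 by 0.25 (0.04 to 0.43 over the experiments, exact permutation p = 0.7). IFIT2 exceeded IFIT1 by 0.53 (0.03 to 0.92, exact permutation p = 0.3).

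**Figure D3:**
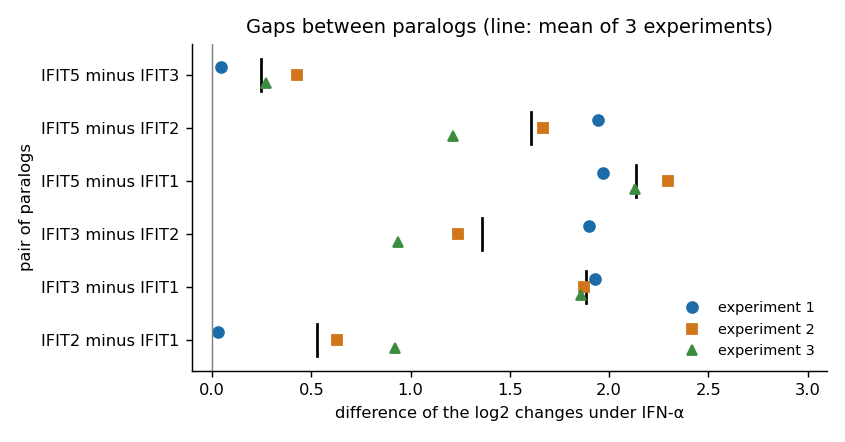
Difference between the log2 changes of 2 paralogs under IFN-α against untreated cells (x-axis) for the 6 pairs (y-axis); symbols are experiments, and the line is their mean. The 4 pairs of a called with an uncalled member lie between 0.94 and 2.30 in every experiment, and IFIT5 minus IFIT3 between 0.04 and 0.43.

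A design that can pass 0.05 set each IFN-α array against the mean of the other 4 arrays of its experiment and moved the IFN-α label within experiments (125 arrangements). It treats the AA arrays like untreated ones. The change of IFIT5 exceeded that of IFIT2 by 1.63, and the change of IFIT3 exceeded that of IFIT2 by 1.44. The changes in the measured values of IFIT5 and IFIT3 exceeded that of IFIT1 by 2.29 and 2.10, with the limit on IFIT1 given above. Each of these 4 gaps had an exact two-sided permutation p = 0.008, the smallest that this test can give, and an adjusted p = 0.012 over the 6 pairs. IFIT2 exceeded IFIT1 by 0.67 (exact permutation p = 0.024, adjusted p = 0.0288), in 2 of 3 experiments, with -0.09 in experiment 1. IFIT5 exceeded IFIT3 by 0.19 (exact permutation p = 0.256), so that these changes are not shown to differ. Without experiment 2 or experiment 3 the adjusted p of the 4 gaps was 0.06, and that of IFIT2 against IFIT1 was 0.144 and 0.2.

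No member was called under AA. IFIT2 and IFIT3 differed in sign between experiments at the intermediate and high doses, whereas IFIT5 lay below untreated cells in 3 of 3 experiments at the low and high doses. At the low, intermediate and high dose limma called 0 of the 4 members in either direction, and 0 of 4 had an unadjusted p under 0.05, where 2.54%, 2.34% and 11% of all clusters had. Over all clusters 0.0207%, 0.0311% and 0.259% were called at these doses, and 0 clusters at an adjusted p under 0.05. Counts of 0 among 4 members are thus near the background and do not set the members apart from other clusters. A slope fitted on the dose over the 12 arrays without IFN-α called 0 of 4 members and 0.245% of clusters. Its values per 100 µg/ml were 0.13 for IFIT1 (95% interval -0.04 to 0.31), -0.10 for IFIT2 (-0.47 to 0.28), -0.10 for IFIT3 (-0.61 to 0.41) and -0.03 for IFIT5 (-0.27 to 0.20).

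IFIT5 moved by at most 0.29 in size within any experiment. Its log2 values were 6.40, 6.24 and 6.32 in untreated cells, 6.33, 6.05 and 6.09 at the low dose, 6.51, 6.16 and 6.03 at the intermediate dose and 6.35, 6.08 and 6.21 at the high dose. Of the 9 changes within experiments 1 was above 0, and they ran from -0.29 to 0.11. At the high dose the difference from untreated cells was -0.10 (95% interval -0.40 to 0.20, adjusted p = 0.784 in limma).

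IFIT3 had log2 values of 5.90, 6.62 and 7.09 in untreated cells, 5.99, 6.54 and 6.67 at the low dose, 6.22, 6.21 and 6.22 at the intermediate dose and 6.57, 6.02 and 6.67 at the high dose. The wide spread of the untreated arrays thus met an SD of 0.0056 among the 3 arrays of the intermediate dose. Within experiment 1 the changes at the 3 doses were 0.09, 0.32 and 0.67. They were -0.08, -0.41 and -0.60 in experiment 2 and -0.42, -0.87 and -0.42 in experiment 3. All 3 doses therefore lay above untreated cells in experiment 1 and below them in experiments 2 and 3. The 3 changes of an experiment share its 1 untreated array, so they are not independent of each other. At the intermediate dose the AA arrays hardly differed, and the sign there followed the untreated arrays. The difference at the high dose was -0.12 (95% interval -0.70 to 0.46, adjusted p = 0.882 in limma), and without the untreated array of experiment 3 it was 0.16.

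IFIT2 followed the same split at the higher doses. Its log2 values were 5.26, 5.58 and 5.70 in untreated cells, 5.25, 5.56 and 5.59 at the low dose, 5.71, 4.96 and 5.49 at the intermediate dose and 5.82, 5.18 and 5.24 at the high dose. At the high dose the changes were 0.56 in experiment 1, -0.40 in experiment 2 and -0.46 in experiment 3. At the intermediate dose they were 0.46, -0.63 and -0.21. The low dose differed from untreated cells by at most 0.11 in size in any experiment. The mean difference at the high dose was -0.10 (95% interval -0.60 to 0.40, adjusted p = 0.884 in limma). Experiment 1, the experiment whose tag carries another date, was thus the only experiment in which IFIT2 and IFIT3 stood higher with the intermediate and high doses. The untreated arrays of both members were also lowest in experiment 1. Whether the date has a part in these differences was not tested.

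IFIT1 had log2 values of 4.04, 4.31 and 4.24 in untreated cells, 4.08, 4.31 and 4.31 at the low dose, 4.31 on each array of the intermediate dose and 4.31, 4.24 and 4.46 at the high dose. Its changes ran from -0.07 to 0.27, and the value of 4.31 recurred at every condition without IFN-α. The difference at the high dose was 0.14 (95% interval -0.09 to 0.37, adjusted p = 0.617 in limma). Without the high-dose array of experiment 3, which stood apart, the differences at the high dose were 0.07 for IFIT1, -0.014 for IFIT2, -0.24 for IFIT3 and -0.10 for IFIT5, and none was called.

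**Figure D4:**
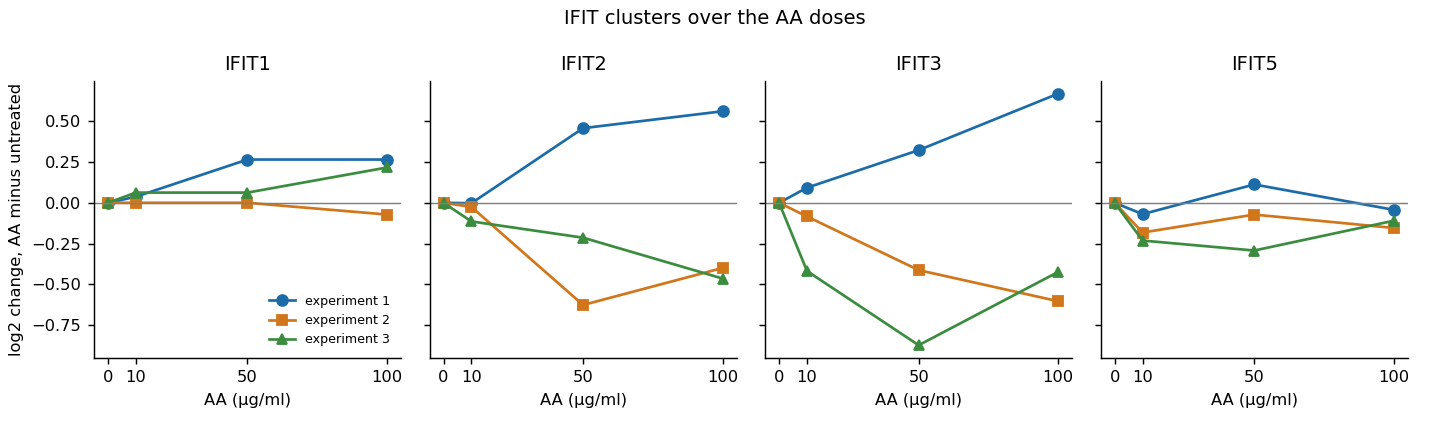
Log2 change, AA minus untreated within an experiment (y-axis), over the AA dose in µg/ml (x-axis) for the 4 IFIT members; each line is 1 experiment. IFIT2 and IFIT3 run above 0 at the 2 higher doses in experiment 1 (0.32 to 0.67) and below 0 in experiments 2 and 3 (-0.21 to -0.87), while IFIT5 stays between -0.29 and 0.11.

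In the direct comparison of the treatments, high-dose AA left IFIT3 and IFIT5 below IFN-α. IFIT5 averaged 6.22 ± 0.14 under high-dose AA and 8.78 ± 0.25 under IFN-α (SD, n = 3 each), a difference of -2.56 (standard error 0.140, adjusted p = 9.51e-08 in limma). IFIT3 averaged 6.42 ± 0.35 under high-dose AA and 8.75 ± 0.34 under IFN-α (SD, n = 3 each), a difference of -2.33 (standard error 0.271, adjusted p = 4.61e-04 in limma). With these, 2 of 4 members were called lower, against 0.449% of all clusters, and 2 of 4 at an adjusted p under 0.05, against 0.277%. IFIT2 differed by -0.95 (adjusted p = 0.162 in limma), with -0.16, -1.12 and -1.57 within experiments 1, 2 and 3, and was not called. IFIT1 differed by -0.19 (adjusted p = 0.479 in limma) and was not called. Its difference was -0.080 without the IFN-α array of experiment 1, -0.066 without all of experiment 1 and -0.30 without all of experiment 3. IFIT2 lay close to the threshold and was called with a replicate block as a random effect (-0.95), among clusters with 1 symbol only (-0.95) and with array weights (-1.15). It was also called without the array of experiment 1 for high-dose AA (-1.15) or IFN-α (-1.14), without that of experiment 2 for intermediate-dose AA (-0.95), and without all of experiment 1 (-1.35). Over the 26 alternative settings the difference of IFIT2 ran from -1.35 to -0.64 (unadjusted p at most 0.045 in limma).

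Set in order by their means, the 5 conditions had IFN-α highest for each member. For IFIT5 and IFIT3 the step between IFN-α and the next condition, untreated cells, passed the threshold. All later steps were small, at most 0.18 for IFIT3 and 0.08 for IFIT5, with overlapping arrays. For IFIT2 the next condition was also untreated cells. For IFIT1 the next was high-dose AA, 0.19 below IFN-α with overlapping arrays, followed by the intermediate dose, the low dose and untreated cells. IFN-α set against the intermediate dose called 3 members higher, IFIT2 among them (0.98, adjusted p = 0.260 in limma), where 0.36% of all clusters were called higher. Against the low dose it called 2, where 0.349% of all clusters were.

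The IFIT members were set beside 62 genes of 7 lists that surround them in the interferon pathway or in the genome. Among the 16 antiviral effectors 12 were called higher under IFN-α, where 0.273% of all clusters were. The median change over the list was 2.32, above the median of 1.53 of the IFIT members. All 16 changes were above 0, the smallest of them 0.09. An unadjusted p under 0.05 in limma was reached by 15 of the 16, against 1.39% of all clusters. OAS2 and OAS1, which make the second messenger of RNase L, rose by 4.78 (standard error 0.0985) and 3.54 (0.0830). IFITM1, a membrane protein that restricts viral entry, rose by 4.81 (0.152), and IFI44L by 4.99 (0.174). Each of these 4 changes exceeded that of IFIT5, and their adjusted p values in limma were at most 6.21e-10. The differences from IFIT5 were not tested.

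Sensors of viral RNA, which act on the kind of RNA that IFIT proteins bind, rose as well. RIGI, which detects triphosphate RNA, rose by 2.17 (standard error 0.125, adjusted p = 1.85e-07 in limma), close to IFIT3. DHX58 and IFIH1, relatives of RIGI, rose by 1.67 and 1.66, and IRF7, the transcription factor that amplifies interferon production, by 0.90. In all 4 of 11 genes of RNA sensing and interferon regulatory factors were called higher, with a median change of 0.13 over the list. The share of all clusters called higher, 0.273%, is the background for each list in this paragraph. In the list of feedback and ISG15 genes 4 of 7 were called higher, with a median of 0.63. They were USP18, which dampens signalling at the receptor (1.67), ISG15 (0.63), and UBA7 (0.79) and UBE2L6 (0.85), which attach ISG15 to proteins. Of the receptor and ISGF3 list (median -0.04) 1 of 5 measured genes was called, IRF9 (1.04, adjusted p = 0.0276 in limma).

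**Figure D5:**
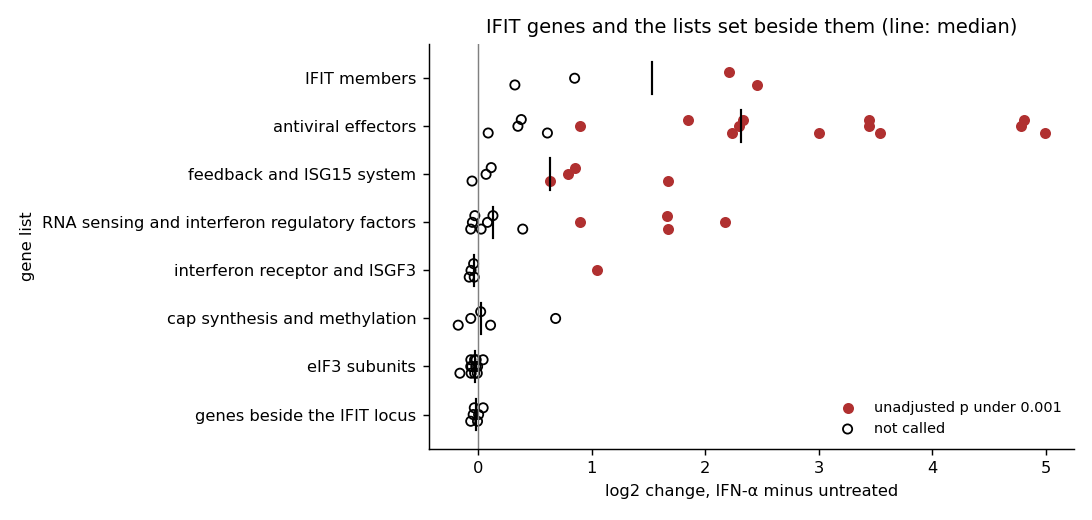
Log2 change under IFN-α against untreated cells (x-axis) for the IFIT members and the genes of 7 lists (y-axis); each circle is 1 gene, filled where the unadjusted p was under 0.001, and the line is the median of the list. The IFIT median of 1.53 lies below the 2.32 of the antiviral effectors, and the eIF3 subunits and the genes beside the IFIT locus lie between -0.16 and 0.04.

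The lists of genes whose products IFIT proteins bind or whose mark they read held no call under IFN-α. Of 12 measured subunits of eIF3, the initiation factor that human IFIT1 and IFIT2 bind, limma called 0, and 0 had an unadjusted p under 0.05 (median change -0.03), where 1.39% of all clusters had, so that a count of 0 is near the background. Of 5 genes of cap synthesis and methylation limma called 0 under IFN-α and 1 had an unadjusted p under 0.05. This was CMTR1, which adds the methyl mark that IFIT1 reads, with 9.46 ± 0.11 under IFN-α and 8.77 ± 0.25 in untreated cells (SD, n = 3 each), a difference of 0.68 (adjusted p = 0.384 in limma). Its unadjusted p in limma was 0.00109, so that it narrowly missed the threshold. CMTR1 was called lower under high-dose AA than under IFN-α (-0.88, adjusted p = 0.0367 in limma).

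The genes around the IFIT locus did not pass the threshold under IFN-α. In the RefSeq order along the chromosome CH25H and LIPA precede IFIT2 and IFIT3, IFIT1B follows, and SLC16A12, PANK1 and KIF20B come after IFIT1 and IFIT5. limma called 0 of these 6 neighbours, and 0 had an unadjusted p under 0.05, again near the background of 1.39%. Their changes were 0.04 for CH25H, 0.0044 for LIPA, -0.0053 for IFIT1B, -0.04 for SLC16A12, -0.07 for PANK1 and -0.03 for KIF20B. IFIT1B lies between IFIT3 and IFIT1 and averaged 4.72 ± 0.11 under IFN-α and 4.72 ± 0.24 in untreated cells (SD, n = 3 each), with a 95% interval of the difference of -0.34 to 0.33. Under AA limma called 0 of the 62 list genes at any dose, and at the low, intermediate and high dose 0, 1 and 5 of them had an unadjusted p under 0.05, against 2.54%, 2.34% and 11% of all clusters. These counts are near the background as well.

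The genes most like each member were found by the root mean square difference of the 12 changes, each treated array minus the untreated array of its experiment, over clusters with 1 symbol other than the members themselves. They were chosen for this likeness, which is a description. For IFIT5 they were OAS3 (0.202), the PKR kinase gene EIF2AK2 (0.218) and MX2 (0.233), all antiviral effectors on the list above. For IFIT3 they were HERC6, a ubiquitin ligase family member (0.339), RIGI (0.349) and EIF2AK2 (0.399). IFIT5 itself lay at 0.369 from IFIT3, with 2 clusters nearer to IFIT3 and 8 nearer to IFIT5. IFIT2 was nearest to UBA7 (0.286), the RNA helicase MOV10 (0.297) and the ubiquitin ligase TRIM21 (0.302), whose changes under IFN-α were 0.79, 0.55 and 1.04. IFIT1 was nearest to BAAT (0.0807), CYP2B7P (0.119) and ERRFI1 (0.136), of which BAAT conjugates bile acids in the liver. These 3 differed from untreated cells by 0.31, 0.17 and 0.17 under IFN-α, and none was called. From IFIT1 to its nearest paralog, IFIT2, the difference was 0.451, and 18212 clusters lay nearer.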

How the data were processed

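Total RNA was hybridised to 15 arrays, 3 per condition. The deposited log2 values were made by the authors with RMA (background correction, quantile normalisation and summarisation per cluster); no normalisation was added and raw intensities were not used here. The annotation names 19310 clusters with 1 symbol, 1752 with several and 7864 with none, and no genome build, so clusters are given no positions. All 28926 clusters were fitted with limma 3.58.1 in R 4.3.3 (group means, no block, default empirical Bayes settings), after a test on simulated data, and a cluster was called at an unadjusted p under 0.001. The precision is limited by 3 arrays per condition.

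The members and lists were chosen with earlier results of these data known. Named are the 4 members, the 3 nearest clusters of each, up to 4 called genes per list by smallest p and every neighbour of the locus. The replicate number stands for the tag of a shared experiment. After subtraction of condition means, arrays of the same number correlated with a median of 0.281 over 30 pairs (-0.194 to 0.536), against -0.172 over 60 pairs of different numbers. The 2 medians are not independent. The subtraction itself pulls pairs of different numbers below 0 where pairs of the same number lie above it. Alternatives were a replicate block (fixed, or random with statmod 1.5.0), removal of the dimmest 25% of clusters or of those without a single symbol, array weights, a variance trend with robust estimation, cyclic loess, an adjusted threshold, the compared groups alone, and leaving out each array or experiment. Permutation tests enumerated every arrangement and used Python 3.11.15; figures were drawn with matplotlib 3.10.9.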

Additional observations from a re-analysis of the deposited data

How the results depend on the processing

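The number of members called kept to within 1.5 times under up to 27 alternatives of each limma comparison, and the calls of IFIT3 and IFIT5 under IFN-α held under each. With experiment as a fixed replicate block, the changes under IFN-α stayed at 2.46 for IFIT5, 2.21 for IFIT3, 0.85 for IFIT2 and 0.32 for IFIT1, and 2 members were called. As a random effect the block changed the call of IFIT2 between high-dose AA and IFN-α, given above, and no other. Sign flips of the differences within experiments, the blocked form of the pair test, gave each of the 6 pairs an exact p = 0.25, the smallest possible.

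Signs turned only where an array or experiment was left out, and only for changes under AA that were not called. Over these settings IFIT2 ran from -0.43 to 0.081 at the high dose, -0.42 to 0.12 at the intermediate dose and -0.18 to 0.059 at the low dose, with a slope of -0.45 to 0.095. IFIT3 ran from -0.51 to 0.16 at the high and -0.46 to 0.14 at the low dose, with a slope of -0.48 to 0.15. IFIT5 ran from -0.22 to 0.020 at the intermediate dose, with a slope of -0.10 to 0.022, and IFIT1 from -0.045 to 0.11 at the low dose.

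Leaving out an experiment left 25 arrangements of the IFN-α label within experiments. The gaps then ran from 1.34 to 1.85 for IFIT5 minus IFIT2, 2.24 to 2.38 for IFIT5 minus IFIT1, 1.21 to 1.57 for IFIT3 minus IFIT2, 1.96 to 2.25 for IFIT3 minus IFIT1 and 0.40 to 1.04 for IFIT2 minus IFIT1. Their adjusted p was at most 0.06 for the first 4 and 0.2 for the last, with fewer arrangements by construction.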
